A study of Mus musculus with 32 samples.

Results

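Malat1, Neat1, Gas5, Snhg1, Snhg3, Snhg6, Snhg8 and Snhg12 are long noncoding RNAs that either build nuclear bodies or carry small nucleolar RNAs (snoRNAs) in their introns. They were chosen by name from a table of 45706 genes, in which 7 of the 8 have a row. Snhg1 was not analysed here, although rows of its guest snoRNAs were. The values come from total RNA sequencing of 32 libraries of BV-2 cells, an immortalised mouse microglial line, in 8 groups of 4. The VEH_scramble group received vehicle and a scramble mimic, a short double-stranded RNA of no intended target. The VEH_miR-7a, VEH_miR-29a and VEH_miR-146a groups received vehicle and a mimic of the named microRNA. The LPS_scramble, LPS_miR-7a, LPS_miR-29a and LPS_miR-146a groups received the same mimics and lipopolysaccharide (LPS, the outer-membrane sugar lipid of certain bacteria, which activates macrophages) at 10 ng/ml for 24 h. The cells are in bulk, so fewer cells of a kind and less RNA per cell cannot be told apart. The labels and the methods of the study differ on whether LPS or transfection came first.

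All groups are cultures of 1 cell line, which the labels call a glioblastoma line, and no age applies to it. The median over libraries was at least 10 CPM (counts scaled to a common library total) for 11 of 14 microglia and macrophage markers, and their summed level was 3301 to 6750 CPM. Of 10 astrocyte and glioma markers only Aldoc reached this level, with a summed level of 45.1 to 196 CPM and a median of 0 for Gfap and Aqp4. Neuron and oligodendrocyte markers (0 of 11 at that level) summed to 2.87 to 17 CPM, and endothelial and fibroblast markers (1 of 9, Kdr) to 101 to 296 CPM. LPS with scramble changed 7 of 13 microglia markers (2 higher, 5 lower), where 17.4% of all genes were called, with Adgre1 at 0.92 and Trem2 at -1.37 on the log2 scale, and it also changed Aldoc (-0.76), Mbp (-0.91) and Kdr (0.74). The part of these markers in the results below was not tested. Library totals were 1222951 to 21920206 counts. A part of each library's counts fell on small structural RNA genes (snoRNA, small nuclear RNA, ribozyme and related classes), and its size varied. This structural RNA share was 37.4% to 38.3% in replicates 2, 3 and 4 of VEH_miR-7a, 18.6% in replicate 2 of VEH_miR-29a and 2.52% to 11.8% in the other 28 libraries. These 4 libraries stand apart. For most differences of named genes that rest on them, the value without them is given beside the result, in the paragraph that follows or in the last section.

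Malat1 is an abundant RNA of nuclear speckles, the bodies that store splicing factors, and is cut from its precursor together with a small tRNA-like RNA. Neat1 is the scaffold of paraspeckles, nuclear bodies that hold RNA-binding proteins. Gas5 and the Snhg genes are snoRNA hosts. Their introns release snoRNAs that guide the chemical modification and processing of ribosomal and spliceosomal RNA, while the spliced host RNA is exported and often destroyed by nonsense-mediated decay, because ribosomes meet an early stop codon. Many hosts start with a pyrimidine run, the 5′ terminal oligopyrimidine (TOP) motif, which ties them to the genes of the translation machinery.

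The mature microRNAs that the mimics represent are shown with the seed, bases 2 to 8, in capitals, since a match to the seed is what a direct target would hold. Sequences are those of RefSeq on GRCm38.p6, and each of the 3 seeds is different.
miR-7a-5p: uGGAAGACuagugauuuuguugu
miR-29a-3p: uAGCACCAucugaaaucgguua
miR-146a-5p: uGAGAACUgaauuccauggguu

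The longest annotated transcript of each gene was searched on its own strand for the seed matches GTCTTCC (miR-7a), TGGTGCT (miR-29a) and AGTTCTC (miR-146a). The 20771 bases of Neat1 held 1, 2 and 3 of them, Snhg8 held 1 for miR-29a, and Malat1, Gas5, Snhg3, Snhg6 and Snhg12 held 0 of each. At least 1 site was held by 19.9%, 19.4% and 18.3% of the 1118 long noncoding genes that passed the filter on low counts. That share does not allow for the length of Neat1. Per kilobase of transcript Neat1 held 0.0481, 0.0963 and 0.1444 sites, against 0.0925, 0.0943 and 0.0855 over these genes. The sites are printed with 11 bases on either side and the match in capitals, as positions in the transcript, because Neat1 and Snhg8 are the members whose values can be set beside a site.
Neat1 18974 to 19002, miR-7a: ggttgaaggttGTCTTCCatgtgttatgg
Neat1 2793 to 2821, miR-29a: tttggcttgaaTGGTGCTtaaaaaccatc
Neat1 17505 to 17533, miR-29a: ctgttttgtttTGGTGCTggaatgaaacc
Neat1 4354 to 4382, miR-146a: tatacttacaaAGTTCTCcatgttgtgtc
Neat1 5302 to 5330, miR-146a: gtttcttactgAGTTCTCaagcataaaaa
Neat1 11884 to 11912, miR-146a: caagttcaggtAGTTCTCtgaatttgaga
Snhg8 87 to 115, miR-29a: caaggtggctaTGGTGCTggccgaaagcc

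The start sites of the hosts were read for the pyrimidine run, here an unbroken run of at least 7 C or T that holds a C and reaches to within 5 bases of the annotated start. Such a run stands in 13.4% of 32851 promoter windows of the same length. It was found in Snhg8 (TCTCTTT), Snhg12 (TCCTTTCTC) and Snhg1, and not in the windows of Gas5, Snhg3 and Malat1, while Neat1 and Snhg6 had no window. A shorter run, cctttc, stands at an annotated start of Gas5 and was not counted. Windows of 20 bases before to 40 bases from the start of Snhg8 (chr3:123508297-123508356, minus strand) and Snhg12 (chr4:132308658-132308717, plus strand) are shown in GRCm38.p6 with the run in capitals, and that of Snhg3 (chr4:132353647-132353706, minus strand) is shown as the host without one.
Snhg8: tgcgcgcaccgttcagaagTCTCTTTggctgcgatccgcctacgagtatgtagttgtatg
Snhg12: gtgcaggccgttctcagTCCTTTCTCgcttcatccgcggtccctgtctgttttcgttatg
Snhg3: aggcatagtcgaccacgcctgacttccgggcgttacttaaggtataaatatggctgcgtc

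The levels of the 7 genes spanned a wide range. Per kilobase of annotated exon, the median level over 32 libraries was 2545 CPM per kb for Malat1, 141 for Snhg3, 76.8 for Neat1, 53.2 for Snhg6, 35.4 for Gas5, 19.5 for Snhg8 and 7.13 for Snhg12. Neat1 makes a short and a long transcript that share their start, which counts per gene cannot tell apart, so its level per kb of the whole gene may understate the short one. Snhg3 varied most between libraries, 67.7-fold from 46.9 to 3171 CPM (20.8-fold over the 29 libraries of under 30% structural RNA), and its SD of log2 CPM was larger than that of 99.4% of 10473 genes. Gas5 varied least, 2.99-fold from 77 to 230 CPM, with 51.1% of genes below its SD. Neighbouring groups in the order of the means overlapped in all 7 steps for each of the 7 genes.

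**Figure D1:**
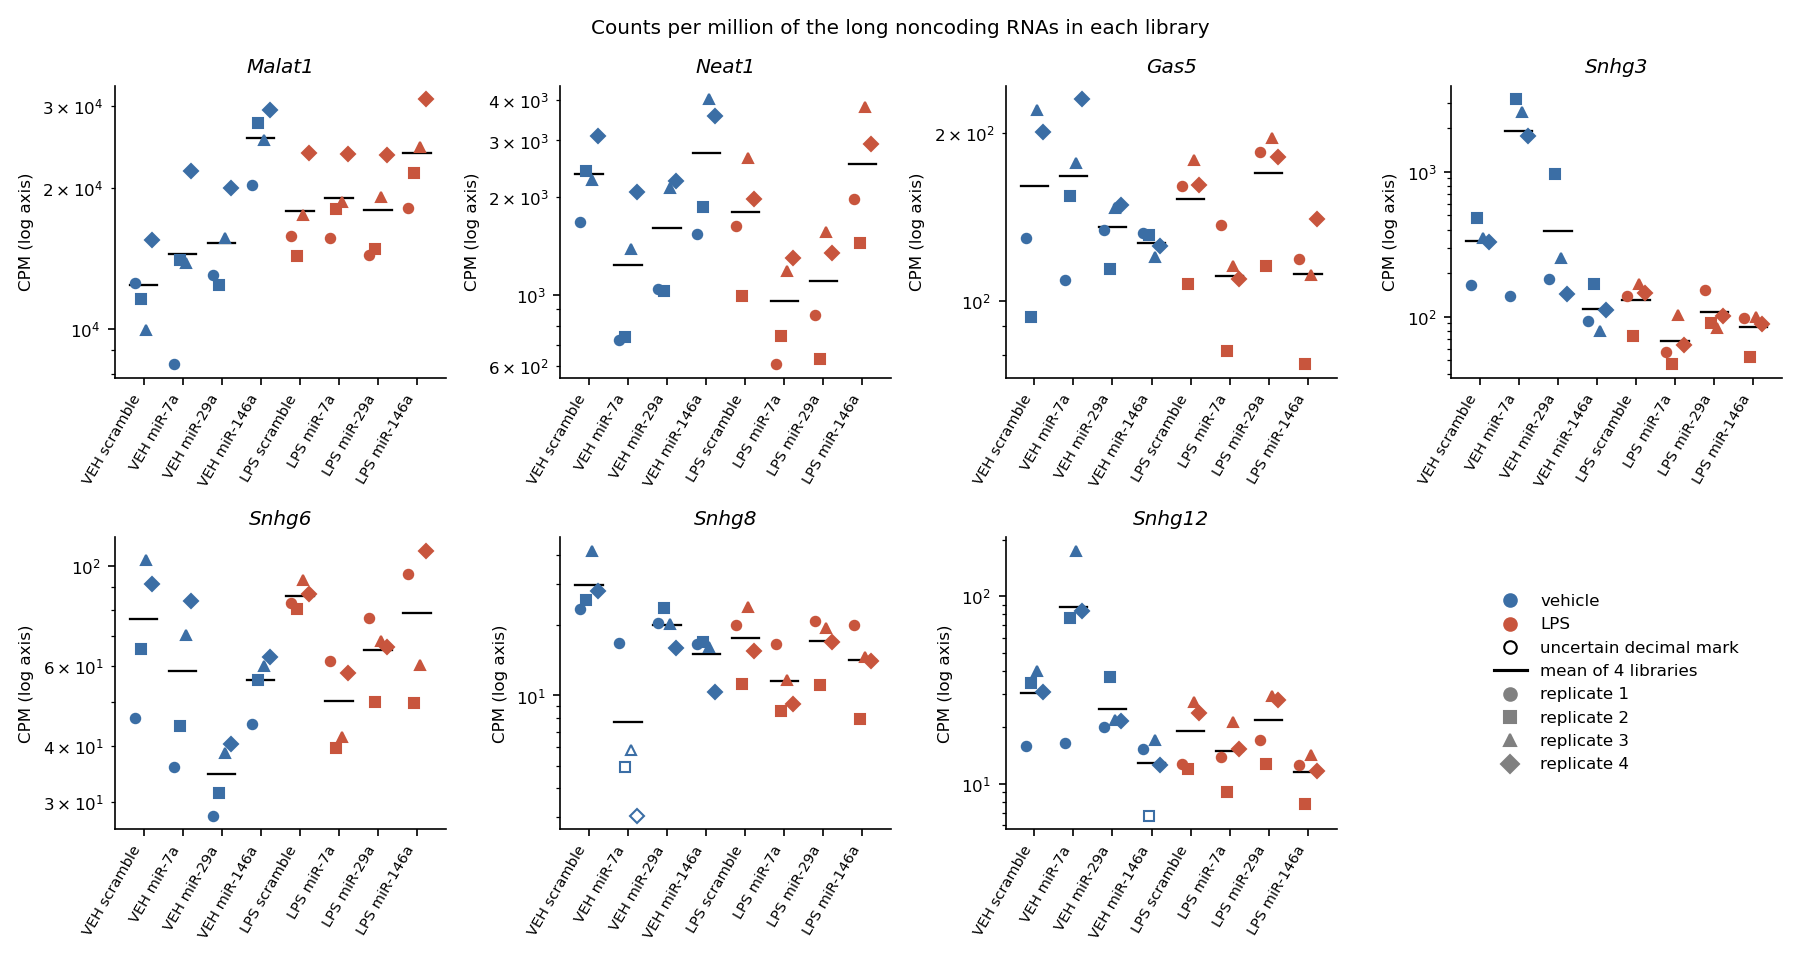
CPM (log axis, its range differs between panels) of each long noncoding RNA in the 32 libraries, by group. Points are libraries with a shape for each replicate number, open points have an uncertain decimal mark, and bars are means of 4 libraries. Snhg3 reached 3171 CPM in VEH_miR-7a against 46.9 at its lowest, and Malat1 was highest in replicate 4 of 8 of 8 groups.

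Each gene was compared between groups with limma-voom on all genes that passed the filter, and a gene was called at a Benjamini-Hochberg adjusted p under 0.05. In the comparison of LPS with vehicle with the scramble mimic, 1 of 7 genes was called (Snhg3, lower), against 17.4% of all genes tested. With the miR-7a mimic LPS gave 1 of 6 (Snhg3, lower), against 6.55% of all genes. With the miR-29a mimic it gave 2 of 7 (Snhg6 higher and Snhg3 lower), against 26.2%. With the miR-146a mimic it gave 0 of 6 by limma-voom, edgeR and DESeq2, with 0 at an unadjusted p under 0.05, against 4.44%. Over all genes, leaving out 1 library gave 1055 to 2748 calls with scramble (2107 with all libraries) and 372 to 832 with miR-7a (767). The range was 2051 to 3528 with miR-29a (3161) and 227 to 486 with miR-146a (531).

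The comparisons of a mimic with scramble share the 4 scramble libraries of a condition and are not independent of each other. Under LPS the miR-7a mimic changed 1 of 7 genes (Snhg6, lower), against 1.88% of all genes. The miR-29a mimic changed 0 of 7, against 4.19%, and the miR-146a mimic 0 of 7, against 2%, by limma-voom, edgeR and DESeq2, with 1 gene each at an unadjusted p under 0.05. Under vehicle the miR-146a mimic changed 2 of 6 (Malat1 higher, Snhg3 lower), against 1.9% of all genes. These background counts move with single libraries: leaving out 1 gave 1 to 1114 called genes for miR-146a under vehicle, where all libraries gave 220, and under LPS 44 to 297 for miR-7a (242) and 8 to 154 for miR-146a (249). For miR-29a under LPS it gave 72 to 551 (549), and for miR-7a under vehicle 4 to 216 (18). The miR-7a mimic under vehicle changed 0 of 6 by these 3 tools, with 2 at an unadjusted p under 0.05, against 0.164%. The miR-29a mimic under vehicle changed 0 of 7 by limma-voom and edgeR and 1 by DESeq2 (Snhg6), with 2 at an unadjusted p under 0.05, against 0.0261%.

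Interaction terms tested whether the LPS difference was another with a mimic than with scramble. With miR-7a 0 of 6 were called by limma-voom and edgeR and 1 by DESeq2 (Snhg3), 1 had an unadjusted p below 0.05, and 0.00831% of all genes were called. With miR-29a 0 of 7 were called by all 3 tools, and 0 had such a p, against 0.0164%. With miR-146a 0 of 6 were called by all 3 tools, and 1 had such a p, against 0% of all genes. In 7 of the 10 comparisons of 2 groups the libraries with the same replicate number deviated together, and with the replicate number as a block the number of called genes there was 4 for LPS with scramble, 4 for LPS with miR-29a, 5 for miR-7a under LPS, 2 for miR-29a under LPS, 5 for miR-146a under LPS and 1 for miR-29a under vehicle. The block raised the number of called genes over the whole table as well, to 3470, 4965, 1695, 2204, 1724 and 67 in these 6 comparisons, against 2107, 3161, 242, 549, 249 and 3 without it. In LPS with miR-146a, the remaining paired comparison, it raised that number from 531 to 1047.

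**Figure D2:**
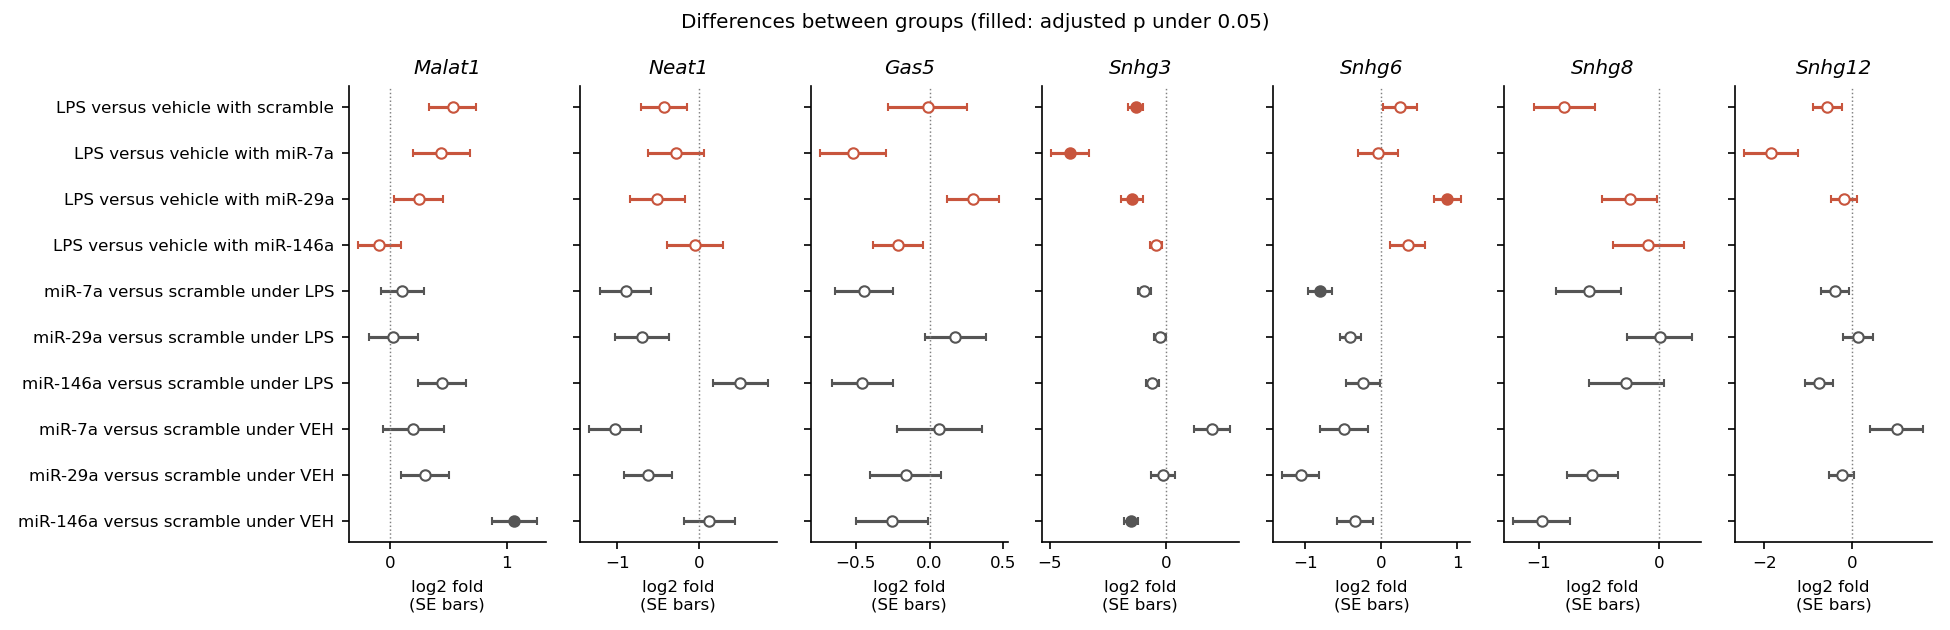
Log2 fold changes of the 7 genes in the 10 comparisons of 2 groups, from limma-voom, with bars of 1 SE and filled points at an adjusted p under 0.05. The range of the horizontal axis differs between genes. In 7 of 66 tests a gene was called, and the largest difference was that of Snhg3 between LPS and vehicle with miR-7a (-4.13).

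Malat1 (ENSMUSG00000092341, chr19:5795690-5802672, minus strand, 1 exon of 6983 bases in its longest transcript) rose with the miR-146a mimic under vehicle. Its levels were 20340, 27490, 25310 and 29380 CPM in replicates 1 to 4 of VEH_miR-146a and 12550, 11560, 9930 and 15490 CPM in VEH_scramble. All 4 libraries with the mimic lay above all 4 with scramble. The share of counts in mitochondrial genes was also higher there, 2.44% to 4.48% against 1.02% to 2.6%, and the structural RNA share lower, 3.78% to 7.07% against 6.69% to 11.8%, and the part of the mitochondrial share in the result was not tested. The fold was 2.09, a log2 fold change of 1.07 (SE 0.19, adjusted p = 0.0284). The size of the change held without any 1 library (0.96 to 1.18), but the call was lost without each library other than replicate 1 of VEH_scramble, at adjusted p from 0.0585 to 0.122. With the structural RNA share of each library as a covariate it was 1.09 and not called (adjusted p = 0.513).

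Under LPS the same mimic gave 18120, 21570, 24520 and 30940 CPM of Malat1 and scramble 15760, 14330, 17520 and 23740 CPM. The ranges overlapped, but each library with the mimic was higher than its same-numbered scramble library. The log2 fold change was 0.44 (SE 0.20, adjusted p = 0.296), and with the replicate block 0.42 (SE 0.08, adjusted p = 0.0137). The interaction of the miR-146a mimic and LPS was -0.63 (SE 0.28, adjusted p = 0.418), so a difference between the conditions was not called.

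LPS itself gave Malat1 a log2 fold change of 0.54 (SE 0.20) with scramble (adjusted p = 0.0888). It was called with the replicate block (0.53, adjusted p = 0.0326) and by DESeq2 (0.53, adjusted p = 0.0428). The log2 fold changes of Malat1 with LPS were 0.44, 0.25 and -0.09 with miR-7a, miR-29a and miR-146a, none of them called. Without the 3 VEH_miR-7a libraries of over 30% structural RNA, which leaves 1 vehicle library, the first was 1.17. With the structural RNA share as a covariate it was 1.48 (adjusted p = 0.135). Replicate 4 was the highest library of Malat1 in 8 of 8 groups. A small RNA gene inside its exon, Gm27694 (86 bases), whose reads cannot be told from those of Malat1, also rose with miR-146a under vehicle, from 9.88 ± 1.71 to 22.7 ± 6.98 CPM (SD, n = 4, adjusted p = 0.0334).

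Neat1 (ENSMUSG00000092274, chr19:5824708-5845478, minus strand) had lower means with the miR-7a and miR-29a mimics than with scramble in both conditions. Under LPS its levels were 609, 747, 1180.0 and 1300.0 CPM in replicates 1 to 4 of LPS_miR-7a, 865, 634, 1562 and 1348 in LPS_miR-29a, and 1628, 992, 2644 and 1971 in LPS_scramble. Each library with either mimic was lower than its same-numbered scramble library, while the ranges overlapped. The log2 fold change was -0.90 (SE 0.31) for miR-7a (adjusted p = 0.168) and -0.70 (SE 0.33) for miR-29a (adjusted p = 0.259), and neither was called. The replicate block called both, at -0.89 (SE 0.15, adjusted p = 0.00572) and -0.70 (SE 0.09, adjusted p = 0.00157). DESeq2 called the first (-0.91, adjusted p = 0.0271) and not the second (-0.71, adjusted p = 0.132).

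With the miR-146a mimic under LPS the levels of Neat1 were 1973, 1443, 3796 and 2919 CPM, each above its same-numbered scramble library. In limma-voom the log2 fold change was 0.50 (SE 0.33, adjusted p = 0.479), and with the block 0.48 (SE 0.08, adjusted p = 0.00651). Neat1 holds seed matches of all 3 microRNAs, and its values stood on both sides of scramble.

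Under vehicle Neat1 averaged 2366 ± 588 CPM with scramble, and with the mimics 1234 ± 645 (miR-7a), 1614 ± 674 (miR-29a) and 2753 ± 1232 (miR-146a; SD, n = 4). The log2 fold changes against scramble were -1.03 for miR-7a, with an unadjusted p of 0.00709 and an adjusted p of 0.248, -0.63 for miR-29a (adjusted p = 0.479) and 0.12 for miR-146a (adjusted p = 0.829), so none was called. Without the 3 VEH_miR-7a libraries of over 30% structural RNA, which leaves 1 library with that mimic, the first was -1.66. With the structural RNA share as a covariate it was -1.49 (adjusted p = 0.196). All 4 same-numbered pairs were lower for miR-29a. LPS was not called for Neat1 with any mimic (log2 fold changes of -0.51 to -0.06), except with the block with miR-29a, where it was -0.53 (adjusted p = 0.00467).

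Gas5 (ENSMUSG00000053332, chr1:161034422-161038539, plus strand), a host whose RNA gathers when growth stops, was the steadiest of the 7. Its group means lay between 111 ± 23 CPM in LPS_miR-7a and 169 ± 36.6 CPM in LPS_miR-29a (SD, n = 4), and 0 of its 10 differences between 2 groups were called by limma-voom, edgeR or DESeq2, with 2 at an unadjusted p under 0.05. Under LPS its levels were 137, 81.4, 116 and 109.6 CPM with miR-7a, 119, 77, 111 and 140.4 with miR-146a, and 161, 107, 179 and 161.5 with scramble. The ranges overlapped, yet each library with either mimic was lower than its same-numbered scramble library. With the block both differences were called, at -0.46 for miR-7a (adjusted p = 0.0105) and -0.45 for miR-146a (adjusted p = 0.0153). With miR-29a the LPS difference was 0.29 (adjusted p = 0.241), and 0.31 with the block (adjusted p = 0.0431).

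All 10 guest snoRNA genes of Gas5 lie inside exons of its retained-intron transcripts, and 9 of them had a median count under 10. Gm26224 fell with LPS, from 5.37 ± 2.95 to 1.34 ± 1.12 CPM with scramble (log2 fold change -2.55, SE 0.46, adjusted p = 0.00449) and from 5.88 ± 2.86 to 0.687 ± 0.51 CPM with miR-7a (-3.18, SE 0.54, adjusted p = 0.00486; SD, n = 4). Without the 3 VEH_miR-7a libraries of over 30% structural RNA the second was -2.92 (adjusted p = 0.196). The host itself had log2 fold changes of -0.01 and -0.52 in these comparisons and was not called. Without those 3 libraries, which leaves 1 vehicle library, the second value of the host was 0.004. Gas5 overlaps Zbtb37 on the opposite strand, and whether the counting used strand is not given in the sources used here.

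Snhg3 (ENSMUSG00000085241, chr4:132348014-132353686, minus strand) had the largest differences. It fell with LPS in 3 of the 4 comparisons. With scramble its levels were 139, 73.1 and 167 CPM in replicates 1, 2 and 3 under LPS, with replicate 4 between the first and the third, and 167, 477, 352 and 329.7 CPM under vehicle, with replicate 1 of VEH_scramble at the top of the LPS range. The fold was 2.46 lower, a log2 fold change of -1.30 (SE 0.33, adjusted p = 0.022), and the call was lost without replicate 2, 3 or 4 of VEH_scramble or replicate 2 of LPS_scramble (adjusted p from 0.0514 to 0.066).

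With miR-7a its levels were 57.5, 46.9, 103.5 and 64 CPM under LPS and 139.8, 3171, 2576 and 1766 CPM under vehicle. The groups did not overlap, and 3 vehicle libraries were over 10 times the first. On the log2 scale the difference was -4.13 (SE 0.81, adjusted p = 0.0109), and leaving out replicate 2 of LPS_miR-7a gave -3.89 (adjusted p = 0.0507). Without the 3 libraries of over 30% structural RNA, which leaves 1 vehicle library assumed to vary like the others, it was -1.09 (SE 0.40, adjusted p = 0.378). Over all genes that fit called 32, against 767 with all libraries. Against VEH_scramble the log2 fold change of VEH_miR-7a was 1.98 (SE 0.77, adjusted p = 0.333), but 3.00 without replicate 1 of VEH_miR-7a (adjusted p = 0.000152) and -1.15 without the other 3 (adjusted p = 0.981).

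With miR-29a its levels were 153, 89.8, 83.7 and 102 CPM under LPS and 181, 973, 255 and 144 CPM under vehicle, with replicate 2 far above the others. The log2 fold change was -1.45 (SE 0.48, adjusted p = 0.0447), and the call was lost without replicate 3 of VEH_miR-29a or any of the 4 LPS_miR-29a libraries (adjusted p from 0.0559 to 0.108). Without replicate 2 of VEH_miR-29a the difference was -0.87 and still called, and without a filter on low counts or with uncertain values kept it was not (adjusted p = 0.0613 and 0.069). With miR-146a it was -0.41 (SE 0.26, adjusted p = 0.435). The vehicle group of that comparison was already lower than scramble: 92.9, 169, 79.6 and 112 CPM in VEH_miR-146a, of which 1 library exceeded the lowest VEH_scramble value. That difference was -1.49 (SE 0.31, adjusted p = 0.0396), and was lost without each library other than replicate 1 of VEH_scramble (adjusted p from 0.0669 to 0.137) and with uncertain values kept (-1.48, adjusted p = 0.061). Under LPS the miR-7a and miR-146a mimics gave -0.93 (adjusted p = 0.127) and -0.59 (adjusted p = 0.317). The block called both (-0.93, adjusted p = 0.00173, and -0.60, adjusted p = 0.00343), and DESeq2 called the first (-0.95, adjusted p = 0.0122).

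Snhg3 followed the structural RNA share of the libraries. The correlation of its log2 CPM with the log2 share was 0.974 over 32 libraries and 0.937 over the 28 without VEH_miR-7a, as a description, since all genes of a library share its composition. The share was 6.69% to 11.8% in VEH_scramble, 4.28% to 18.6% in VEH_miR-29a, 3.78% to 7.07% in VEH_miR-146a and 2.52% to 5.7% in the 4 LPS groups, so it moved with the same contrasts. With the share as a covariate, an alternative chosen after seeing the data, the LPS differences of Snhg3 were 0.22 (adjusted p = 0.999), 0.42 (adjusted p = 0.784), 0.05 (adjusted p = 0.928) and -0.04 (adjusted p = 0.959) with scramble, miR-7a, miR-29a and miR-146a, and that of miR-146a under vehicle was -0.07 (adjusted p = 0.945). Over all genes 19 genes were called with the covariate and 2107 without it for LPS with scramble, 58 and 767 with miR-7a, 823 and 3161 with miR-29a, and 1 and 220 for miR-146a under vehicle. With scramble and miR-7a every LPS library had a lower share than every vehicle library, so the share and the treatment cannot be told apart. With miR-29a and miR-146a the shares overlapped, at 2.955% to 4.65% and 2.52% to 5.58% under LPS against 4.28% to 18.6% and 3.78% to 7.07%. The part of the share in these differences was not tested.

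**Figure D3:**
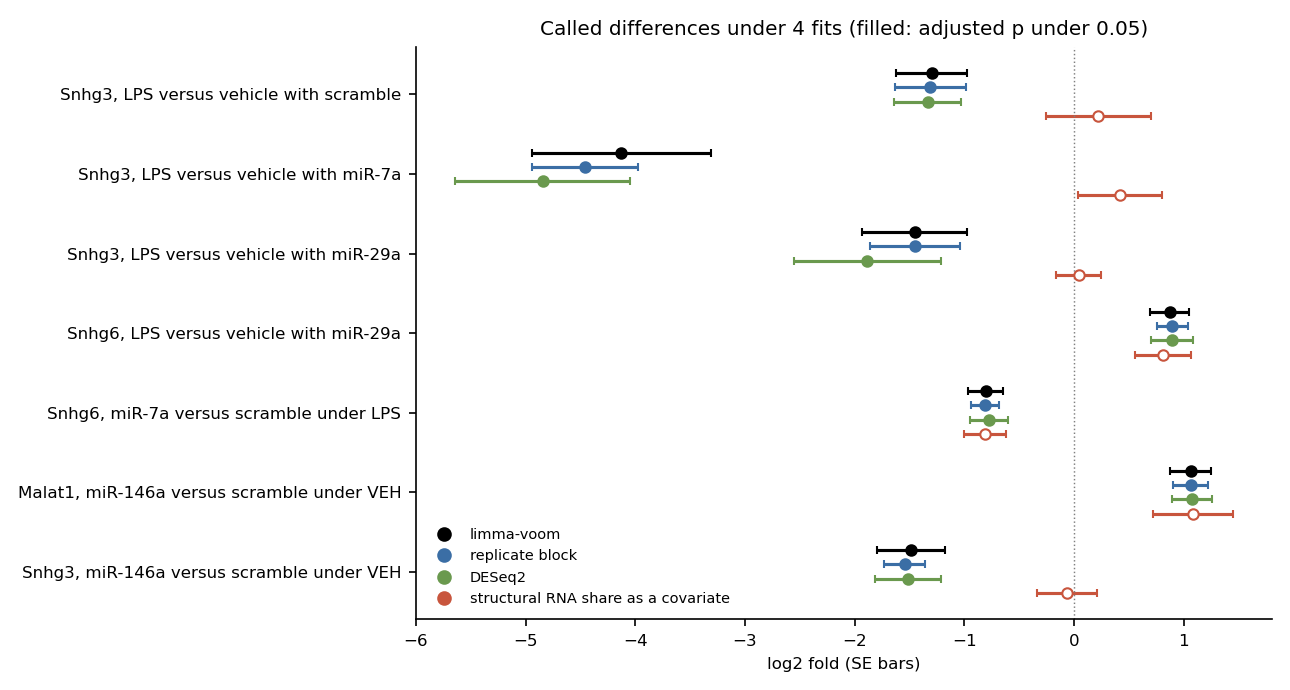
The 7 called differences of the long noncoding RNAs (log2 fold with 1 SE) under limma-voom, with a replicate block, with DESeq2 and with the structural RNA share of each library as a covariate. Filled points have an adjusted p under 0.05. The 4 differences of Snhg3 lay between -0.07 and 0.42 with the covariate, while those of Snhg6 (0.81 and -0.81) and Malat1 (1.09) kept their size but not their call.

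The introns of Snhg3 hold Snora73a and Snora73b, snoRNAs that act in the processing of the ribosomal RNA precursor. They are shown because host and guests gave nearly the same profile, in GRCm38 (GENCODE M21) at chr4:132352775-132352979 and chr4:132352322-132352526, minus strand, with the differing positions in capitals. They match at 198 of 205 positions (96.6%), so the counting may split reads between them, and Snora73a partly overlaps an exon of a spliced Snhg3 transcript.
Snora73a: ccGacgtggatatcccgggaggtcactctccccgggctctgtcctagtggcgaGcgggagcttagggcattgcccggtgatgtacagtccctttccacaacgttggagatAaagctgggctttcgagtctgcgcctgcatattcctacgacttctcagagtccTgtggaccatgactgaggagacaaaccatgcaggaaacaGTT
Snora73b: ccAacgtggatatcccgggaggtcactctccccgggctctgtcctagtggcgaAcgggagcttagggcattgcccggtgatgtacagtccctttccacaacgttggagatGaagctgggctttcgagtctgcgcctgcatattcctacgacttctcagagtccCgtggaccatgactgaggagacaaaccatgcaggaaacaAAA

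Across the 32 libraries log2 CPM of Snhg3 correlated with that of Snora73a at 0.991 and of Snora73b at 0.979. In VEH_miR-7a Snora73a was at 109.9, 1742, 2086 and 1617 CPM, which is the same split of replicate 1 from the other 3 as in the host. Snora73a fell with LPS with scramble (log2 fold change -1.54, SE 0.35, adjusted p = 0.0144) and with miR-7a (-4.39, SE 0.80, adjusted p = 0.00743), and Snora73b with miR-7a (-4.47, SE 1.05, adjusted p = 0.0261). Without the 3 VEH_miR-7a libraries of over 30% structural RNA neither was called with miR-7a, at -1.43 (adjusted p = 0.24) and -0.84 (adjusted p = 0.698). Snhg3 also overlaps Rcc1 on the same strand and Gm17300 on the other, so some of its reads may belong to them.

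**Figure D4:**
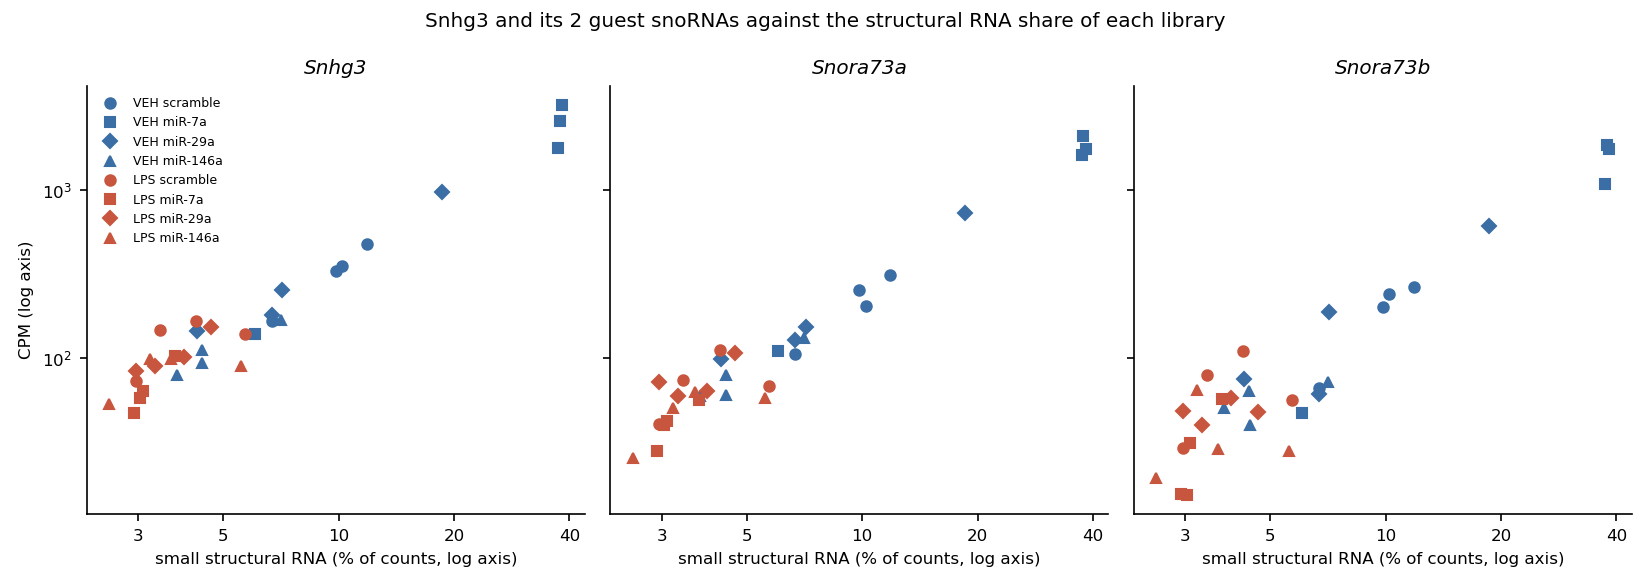
CPM of Snhg3, Snora73a and Snora73b against the share of counts in small structural RNA genes, 1 point per library, both axes on a log scale, colours for vehicle and LPS and shapes for mimics. The 3 VEH_miR-7a libraries at 37.4% to 38.3% hold the highest values of all 3 genes, and the points follow 1 line from the LPS libraries upwards.

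Snhg6 (ENSMUSG00000098234, chr1:9941959-9944118, minus strand), host of Snord87, had called differences while its correlation with the structural RNA share was -0.018 over 32 libraries. It rose with LPS in the cells with miR-29a, from 28, 31.4, 38.6 and 40.4 CPM to 76.8, 50, 68.2 and 66.4 CPM in replicates 1 to 4. All LPS libraries lay above all vehicle libraries. The fold was 1.83, a log2 fold change of 0.87 (SE 0.18, adjusted p = 0.00484), and it remained called without any 1 of the 8 libraries (adjusted p from 0.00182 to 0.0189).

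The miR-7a mimic lowered Snhg6 under LPS, to 61.7, 39.6, 41.9 and 58 CPM from 82.7, 80.4, 93.3 and 86.9 CPM with scramble. The groups did not overlap. The fold was 1.74 lower, a log2 fold change of -0.80 (SE 0.16, adjusted p = 0.0341), and the call was lost without any 1 of the 4 LPS_scramble libraries or replicate 2 or 3 of LPS_miR-7a (adjusted p from 0.0628 to 0.118). Keeping values of uncertain decimal mark gave -0.79 (adjusted p = 0.0514). With the structural RNA share as a covariate neither call of Snhg6 was kept, at 0.81 (adjusted p = 0.0849) for LPS with miR-29a and -0.81 (adjusted p = 0.094) for miR-7a under LPS.

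With miR-29a under LPS the groups of Snhg6 also did not overlap, and the log2 fold change was -0.41 (SE 0.14, adjusted p = 0.133), called with the block (-0.41, adjusted p = 0.025). Under vehicle the 4 VEH_miR-29a libraries lay below all VEH_scramble libraries (46.1, 65.5, 103.1 and 91.4 CPM). Its log2 fold change was -1.06 (SE 0.25, adjusted p = 0.197), and -1.11 (SE 0.14) with the block (adjusted p = 0.0153). LPS with scramble gave Snhg6 a log2 fold change of 0.25 (adjusted p = 0.467), and the interaction of miR-29a and LPS was 0.64 (SE 0.30, adjusted p = 0.765). Snord87 had a median count of 3 and was not tested in any comparison. Snhg6 overlaps Mcmdc2 on the opposite strand.

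Snhg8 (ENSMUSG00000104960, chr3:123507552-123508404, minus strand), host of Snora24, had 3 values in VEH_miR-7a that could not be read with certainty. Of the other 7 groups its mean was highest in VEH_scramble, at 23.6, 25.7, 41.8 and 28.1 CPM. With miR-146a under vehicle it was at 16.6, 17, 16.2 and 10.3 CPM, below every scramble library. This gave a log2 fold change of -0.98 (SE 0.24) and just missed the threshold (adjusted p = 0.0555), and DESeq2 gave -0.97 (adjusted p = 0.00694). With LPS and scramble it was at 20, 11.2, 23.9 and 15.5 CPM, each library lower than its same-numbered vehicle library. That log2 fold change was -0.79 (SE 0.26, adjusted p = 0.0574). It was called with the block (-0.80, adjusted p = 0.00899) and by DESeq2 (-0.76, adjusted p = 0.0265).

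The miR-29a mimic, for which Snhg8 holds a seed match, gave log2 fold changes of 0.01 (SE 0.27) under LPS (adjusted p = 0.994) and -0.56 (SE 0.21) under vehicle (adjusted p = 0.381). The miR-7a mimic under LPS, for which it holds none, gave -0.59 (SE 0.27, adjusted p = 0.305), called with the block (-0.68, adjusted p = 0.0169). In replicates 2, 3 and 4 of VEH_miR-7a the decimal mark of Snhg8 was uncertain: the values read as 4.91, 5.83 and 3.04 CPM, or as 49.1, 58.3 and 30.4 CPM with the mark 1 place further. Snhg8 was therefore not tested in comparisons with VEH_miR-7a. Without that group its log2 CPM correlated with the log2 structural RNA share at 0.719 over 28 libraries.

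Snhg12 (ENSMUSG00000086290, chr4:132308623-132311024, plus strand) lies on the same chromosome as Snhg3 and had the lowest level per kb. Its levels were 16.6, 76.8, 174.6 and 83 CPM in VEH_miR-7a, against 15.9, 34.65, 39.8 and 31 CPM in VEH_scramble and 14, 9.01, 21.2 and 15.3 CPM in LPS_miR-7a. Replicate 1 of VEH_miR-7a stood apart from the other 3, as for Snhg3. LPS with miR-7a gave a log2 fold change of -1.85 (SE 0.61, adjusted p = 0.0992), and DESeq2 called this difference (-2.58, adjusted p = 0.00204). Without replicate 1 of VEH_miR-7a limma-voom gave -2.93 (adjusted p = 0.0003). Without the other 3, which leaves 1 vehicle library, it gave -0.21. VEH_miR-7a against scramble was 1.01 (SE 0.60, adjusted p = 0.514), 1.96 without that replicate (adjusted p = 0.00797) and -0.76 without the other 3 (adjusted p = 0.981). With scramble LPS gave -0.57 (adjusted p = 0.262), called with the block (-0.67, adjusted p = 0.0404).

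With miR-146a under LPS Snhg12 was at 12.5, 7.81, 14.3 and 11.8 CPM against 12.8, 12, 27.4 and 23.8 CPM with scramble. Each library was lower than its same-numbered scramble library, and the ranges overlapped. Here the log2 fold change was -0.75 (SE 0.32, adjusted p = 0.255), called with the block (-0.74, adjusted p = 0.0227). Replicate 2 of VEH_miR-146a read as 6.74 CPM, or 67.4 with the mark 1 place further, so Snhg12 was not tested with that group. Its correlation with the structural RNA share was 0.804 over 32 libraries and 0.525 over 28 without VEH_miR-7a.

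The 5 guest snoRNA genes of Snhg12 lie inside exons of its annotated transcripts, so reads of host and guests cannot be told apart. Snora61, of the class that guides pseudouridine formation, fell with LPS with scramble, from 16.3 ± 6.71 to 4.87 ± 2.73 CPM (SD, n = 4, log2 fold change -1.56, SE 0.38, adjusted p = 0.018). Snora16a fell from 2.6 ± 1.08 to 0.889 ± 0.391 CPM (-1.38, SE 0.39, adjusted p = 0.0348). Both correlated with the host, at 0.908 and 0.905 over 32 libraries. Of the guests of Snhg1, Snord22 had a median of 3.15 CPM and was not called in any comparison by limma-voom, but edgeR and DESeq2 called it lower for LPS with miR-7a (-3.92, adjusted p = 0.00171, and -3.99, adjusted p = 1.305e-06) and for miR-146a under vehicle (-1.86 by both, adjusted p = 0.0461 and 0.00165). With miR-7a Snord22 was at 36.65 ± 24.69 CPM under vehicle and 2.34 ± 0.692 CPM under LPS (SD, n = 4). That vehicle group, VEH_miR-7a, holds the libraries of highest structural RNA share. The edgeR and DESeq2 values of Snord22 without those libraries are not given here, and the part of the share in them was not tested. Gm25855 fell with LPS with scramble, from 3.42 ± 1.93 to 0.735 ± 0.391 CPM (-2.21, SE 0.53, adjusted p = 0.018).

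Over all hosts, guest snoRNAs were called lower in 5 of 8 tests with LPS and scramble and in 3 of 5 with miR-7a, where 8.16% and 3.87% of all genes were called lower. With LPS and miR-29a 0 of 4 were called (lowest adjusted p = 0.0598) and with miR-146a 0 of 3 (lowest adjusted p = 0.184), and in the 6 comparisons of a mimic with scramble the lowest adjusted p of a guest was 0.0555. Over all comparisons these 8 calls were 14 with edgeR and 20 with DESeq2. The guests tested had median log2 fold changes with LPS of -1.49 (scramble), -3.97 (miR-7a), -0.33 (miR-29a) and -0.80 (miR-146a), beside -0.001 to 0.021 for all genes tested. Without the 3 VEH_miR-7a libraries the median of the 6 guests tested with miR-7a was -1.253, and 0 were called. With the structural RNA share as a covariate 0 guests were called in any of the 10 comparisons, and over all genes the calls fell as well, to 19 for LPS with scramble and 58 with miR-7a. The guests are themselves counted in that share, so this fit cannot tell their change from that of the share.

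Other snoRNA hosts were called lower with LPS as well. Of a list of 15 such genes, LPS lowered 3 of 8 tested with scramble, 4 of 8 with miR-7a, 3 of 11 with miR-29a and 1 of 10 with miR-146a, and raised none in these 4 comparisons. Of all genes, 8.16%, 3.87%, 12.9% and 1.45% were called lower, and 17.4%, 6.55%, 26.2% and 4.44% in either direction, so the share with miR-29a was near that of all genes called in either direction. Their median log2 fold changes were -0.55, -1.20, -0.34 and -0.30. Snhg20 fell in all 4, with log2 fold changes of -1.11, -3.52, -1.41 and -0.83 (adjusted p = 0.00902, 0.0277, 0.0199 and 0.0462). Snhg17 fell in the first 3, at -0.52, -1.16 and -0.67 (adjusted p = 0.0296, 0.0149 and 0.00466). Snhg4 fell with miR-7a, from 2317 ± 1842 to 79 ± 30.4 CPM (SD, n = 4, adjusted p = 0.0199). Snhg15 fell with scramble, and Dancr with miR-7a and miR-29a.

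The vehicle groups of the miR-7a and miR-29a comparisons hold the libraries of high structural RNA share. VEH_miR-7a had Snhg20 at 483 ± 327 CPM and VEH_miR-29a at 92.7 ± 69.6 CPM, against 23.5 ± 3.62 and 27.2 ± 4.34 CPM under LPS (SD, n = 4). Without the 3 VEH_miR-7a libraries, which leaves 1 vehicle library, the differences with miR-7a were -0.56 for Snhg20, -0.53 for Snhg17, -0.72 for Snhg4 and -1.10 for Dancr, and none was called (adjusted p from 0.395 to 0.588). The median of the 10 hosts then tested was -0.54. Without replicate 2 of VEH_miR-29a they were -1.04 for Snhg20 and -0.65 for Snhg17, both called, and -0.79 for Dancr (adjusted p = 0.0874). With the structural RNA share as a covariate 0 of these hosts were called in the 4 comparisons, and their medians were -0.22, 0.26, -0.11 and -0.11.

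Of this list of other hosts, Zfas1 was the one called with a mimic by limma-voom. The miR-7a mimic lowered it under LPS from 133 ± 22.3 to 73 ± 12.9 CPM (SD, n = 4, log2 fold change -0.86, SE 0.16, adjusted p = 0.0316), beside the -0.80 of Snhg6 in the same libraries. Of 12258 genes, Zfas1 (listed as 1500012F01Rik) was also the one whose log2 CPM was most like that of Snhg6 over 32 libraries, with a correlation of 0.755, where 99% of genes were under 0.536.

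The 5′ TOP genes, which code for ribosomal proteins and translation factors, are those to which pyrimidine-run hosts are tied. LPS lowered 6 of 21 with scramble, 7 of 22 with miR-7a and 5 of 20 with miR-29a, and called 0 of 20 with miR-146a, with none higher. Of all genes 8.16%, 3.87%, 12.9% and 1.45% were called lower, and 17.4%, 6.55%, 26.2% and 4.44% in either direction, so the share with miR-29a was no larger than that of all genes called in either direction. Their medians were -0.40, -0.34, -0.32 and -0.35, so the fourth was as low without a call. With the structural RNA share as a covariate 0, 0, 1 and 0 were called, and the medians were -0.27, -0.48, -0.33 and -0.37. Rack1, a ribosomal scaffold protein, fell from 2970.0 ± 473 to 1832 ± 147 CPM with scramble (SD, n = 4, adjusted p = 0.0155), and Eif3k, an initiation factor subunit, had log2 fold changes of -0.67, -0.81 and -0.67 in the first 3 comparisons. Without the 3 VEH_miR-7a libraries, 0 of the 7 called with miR-7a remained, and Rack1 was at -0.57 (adjusted p = 0.374) and Eif3k at -0.86 (adjusted p = 0.212). Vim fell with miR-29a (-1.35), also under LPS against scramble (-0.56, adjusted p = 0.0379). The medians of the mimic comparisons lay between -0.28 and -0.14.

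Among 18 paraspeckle proteins, the partners of Neat1, LPS raised 2 with scramble (Taf15 by 1.03 and Hnrnph3 by 0.67 on the log2 scale) and 4 with miR-29a, where 1 was lower. These shares were no larger than, or near, the 17.4% and 26.2% of all genes called in either direction. The raised genes with miR-29a included Cpsf6 (0.53), Hnrnph3 (0.85) and Matr3 (0.54), of which Matr3 was not called without replicate 2 of VEH_miR-29a (adjusted p = 0.0637). With miR-146a LPS raised Dazap1 (0.66, adjusted p = 0.0139), 1 of 18 against 4.44% of all genes called. With miR-7a 0 of 18 were called, against 6.55% of all genes. In the 6 comparisons of a mimic with scramble, limma-voom called 0 paraspeckle genes and not Neat1. Under LPS the replicate block called 4 of 18 paraspeckle genes lower for the miR-29a mimic, 3 for miR-7a and 1 for miR-146a, and it also called Neat1 there. Over all genes the block called 2204 of 13107, 1695 of 12886 and 1724 of 12464 in these comparisons, in either direction. DESeq2 called 1 paraspeckle gene lower for miR-146a under vehicle. Of 22 nuclear speckle and Malat1-associated proteins, LPS raised Pnn, a splicing cofactor, with scramble (1.09, adjusted p = 0.0366) and with miR-29a (0.65, adjusted p = 0.0261), and lowered Elac2, which cuts tRNA precursors, with scramble (-0.40, adjusted p = 0.0467). These were 2 of 22 with scramble and 1 of 22 with miR-29a, below the 17.4% and 26.2% of all genes called. With the miR-146a mimic under vehicle, where Malat1 rose, 0 of these 22 genes were called and their median was 0.29, beside -0.035 for all genes.

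Of the snoRNP proteins that bind and assemble snoRNAs, the miR-146a mimic lowered 3 of 20 under LPS, against 2% of all genes. Nolc1, a nucleolar chaperone of snoRNPs, fell from 126 ± 5.63 to 84.2 ± 4.41 CPM (SD, n = 4, log2 fold change -0.57, SE 0.09, adjusted p = 0.0204), Ruvbl2 had -0.73 (adjusted p = 0.0309) and Nop56 -0.70 (adjusted p = 0.0484). Under vehicle the mimic lowered Nhp2 (-0.79, adjusted p = 0.0474), 1 of 20 tested, against 1.9% of all genes called. The median of the list was -0.46 under LPS and -0.34 under vehicle. LPS with scramble raised Nop14 (0.95) and lowered Nop10 (-0.94), and LPS with miR-7a lowered Pih1d1 (-0.86), which was not called without the 3 VEH_miR-7a libraries (-0.94, adjusted p = 0.276). These were 2 of 20 with scramble and 1 of 20 with miR-7a, below the 17.4% and 6.55% of all genes called.

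Nonsense-mediated decay factors, which destroy spliced host RNAs, were called higher with LPS in 3 of 20 with scramble and 2 of 19 with miR-29a, and none was lower. Of all genes 17.4% and 26.2% were called in either direction and 9.26% and 13.2% higher, so, counted in either direction, the share of decay factors called was below that of all genes. Those that rose with scramble included Xrn1 (0.72, adjusted p = 0.0145) and Upf3b (0.88, adjusted p = 0.049), and those with miR-29a were Upf3b (0.78) and Nbas (0.43), neither of them called without replicate 2 of VEH_miR-29a (adjusted p = 0.0642 and 0.0622). A list of 25 symbols of other long noncoding RNAs, with Norad also under its older symbol, had 15 to 19 genes tested in a comparison. Of these, LPS lowered Firre with scramble (-0.75) and miR-29a (-0.69), Lncpint with scramble (-0.89) and Kcnq1ot1 with miR-146a (-0.50). It raised Mir155hg, the precursor of an inflammatory microRNA, with miR-29a, from 0.186 ± 0.134 to 2.16 ± 0.813 CPM (SD, n = 4), and Dleu2 (0.69). The counts were 2 of 17 with scramble, 3 of 17 with miR-29a and 1 of 17 with miR-146a, against 17.4%, 26.2% and 4.44% of all genes called. The miR-146a mimic under vehicle raised Oip5os1 (0.88, adjusted p = 0.044), in the comparison in which Malat1 rose. This was 1 of 17 tested, against 1.9% of all genes called.

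**Figure D5:**
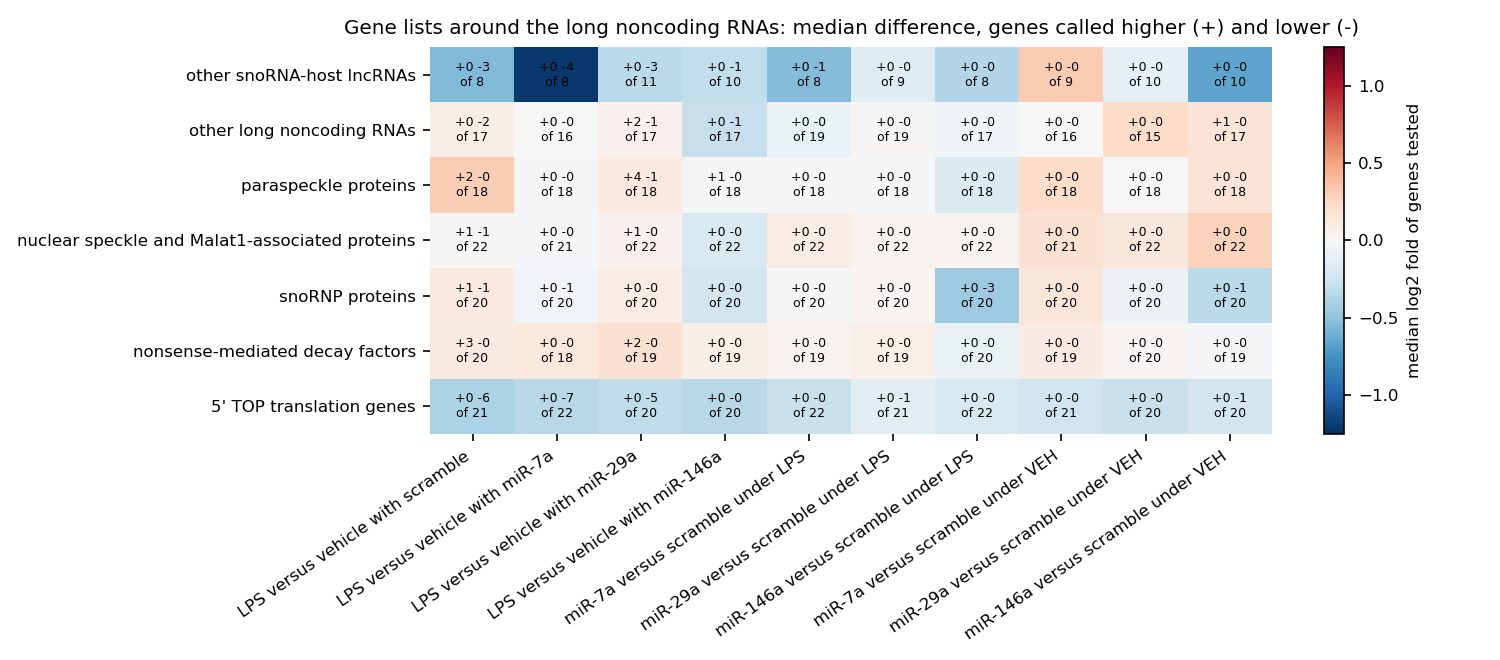
Median log2 fold change (colour) of the genes tested in 7 lists around the long noncoding RNAs in the 10 comparisons of 2 groups, with the number called higher (+) and lower (-) of those tested. With LPS the other snoRNA hosts were called lower in 4 and the 5′ TOP genes in 3 of the 4 comparisons with vehicle, and none was called higher.

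The genes most like each member over the 32 libraries were named by the correlation of log2 CPM, as a description. For Malat1 they were Mctp1 (0.856), Luc7l2, a splicing factor (0.843), and Nfat5 (0.833). For Neat1 they were Vdac1, a channel of the outer mitochondrial membrane (0.831), Ndrg3 (0.828) and Adamts1 (0.816). For Gas5 they were the histone chaperone Nap1l1 (0.82), Acot13 (0.804) and the nucleolar protein Npm1 (0.783).

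For Snhg3 they were Snora73a (0.991), Rmrp, the RNA of an RNA-processing enzyme (0.979), and the snoRNA Gm26448 (0.975), and for Snhg12 the snoRNAs Gm25636 (0.943), Gm24888 (0.925) and Gm26397 (0.923). For Snhg6, 2410006H16Rik (0.713) and Ifitm2 (0.709) followed Zfas1. For Snhg8 they were the pseudogene Gm12933 (0.819), Aatf (0.796) and Cops6 (0.778), which rest in part on the 3 uncertain values of Snhg8 in VEH_miR-7a. Over the 28 libraries without that group they correlated with it at 0.646, 0.699 and 0.636. Of the long noncoding RNAs themselves, Snhg3 and Snhg12 were most alike over 32 libraries (0.864). Over the 28 without VEH_miR-7a they were at 0.678, below Snhg3 with Snhg8 (0.753) and Snhg8 with Snhg12 (0.691). Snhg3 and Snhg8 were at -0.264 over 32 libraries, a value that rests on the 3 uncertain readings of Snhg8 in the libraries where Snhg3 was highest. Malat1 and Neat1, the neighbouring nuclear RNAs, correlated at 0.482.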

How the data were processed

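Total RNA of BV-2 cells was depleted of ribosomal RNA and made into libraries with a kit that keeps strand. The authors ran an nf-core RNA-seq workflow on GRCm38, and per their methods used filterByExpr, TMM and limma/edgeR. The annotation release and the strand setting are not given in the sources used here. The deposited table holds 1 estimated count per gene and library, which the authors call counts, and its decimal marks were lost. They were restored by a model that weighs 0 to 3 lost decimals from the size of a value, its last digits and the level of the gene in other libraries, most of all those of the same group and condition, so a restored value leans on its group. The model had separate library sizes for small structural RNA genes. Lost decimals were given to 27.7% of 590874 values above 0. Values of posterior under 0.9 (3.1%) were uncertain, and a gene with one in the libraries compared was left out of that comparison. The 7 long noncoding RNAs read the same in all libraries with 1 set of library sizes.

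Restored counts were tested with limma-voom (limma 3.58.1, edgeR 4.0.16, R 4.3.3) after filterByExpr and TMM, a fit per pair of groups, and an interaction term over 4 groups. Adjustment was by Benjamini-Hochberg over all genes tested. CPM used TMM library sizes. Levels per kb used merged exons of GENCODE M21, and gene positions come from there. Alternatives were edgeR's quasi-likelihood test, DESeq2 1.42.0, median-ratio size factors, library totals without structural RNA, no filter, a posterior minimum of 0.99, uncertain values kept, 1 set of library sizes, a replicate block and leaving out each library. After seeing the data, the structural RNA share as a covariate and a fit without the 3 libraries above 30% were added. The limma-voom fit of LPS against vehicle with scramble was run on simulated data with known answers, and the other fits were not. Intervals from replicates cover the spread between cultures that the study calls independent experiments.

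Replicate numbers come from the labels. Deviations of same-numbered libraries from their group means correlated at 0.14 to 0.735 in 7 of 10 comparisons of 2 groups, which were taken as paired (every pair over 0.1), and reached -0.176 in the other 3 (LPS with miR-7a, miR-7a and miR-146a under vehicle).

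The genes and lists were chosen with earlier results of these data known. Named were all members in every comparison, the 3 genes most correlated with each, tested guest snoRNAs, and from each list the 3 called genes of smallest adjusted p, or 2 of smallest p where none was called, of which only called ones are printed; a single called decay factor is not reported here by name. The lists were other snoRNA hosts, other long noncoding RNAs, paraspeckle, nuclear speckle and snoRNP proteins, decay factors, 5′ TOP genes and cell type markers. Of the list symbols, Snhg10 found no row.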

Additional observations from a re-analysis of the deposited data

Results flagged for a closer look

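In groups of 4 libraries, 1 sample stood apart from the other 3 by Dixon's test in 3 of 56 combinations of gene and group, where chance gives about 1 in 20, or 2.8. Snhg3 was at 973.4 CPM in replicate 2 of VEH_miR-29a, with the next library at 255 CPM, and Snhg12 at 36.95 CPM in the same library, with the next at 21.7 CPM. This library held 18.6% of its counts in small structural RNA, against 4.28% to 7.12% in the other 3 of its group. Snhg8 was at 10.35 CPM in replicate 4 of VEH_miR-146a, with the next library at 16.2 CPM. The part of the structural RNA share in these values was not tested.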

How the results depend on the processing

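Of 85 results for the long noncoding RNAs, the alternatives gave the same direction and call in 744 values, 9 lost a call, 35 gained one and 34 turned direction. An uncalled value that changed sign by no more than 1 SE was counted as the same. All turned directions came from the structural RNA share as a covariate or from leaving out the 3 VEH_miR-7a libraries above 30%, both chosen after seeing the data, and the cause was not tested.

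With the share as a covariate, the number of called long noncoding RNAs fell to 0 in each comparison that had any (LPS with scramble, miR-7a or miR-29a, miR-7a under LPS and miR-146a under vehicle), and over all genes from 2107 to 19, 767 to 58, 3161 to 823, 242 to 58 and 220 to 1. For LPS with scramble the values were 0.36 for Neat1, 0.29 for Gas5, 0.22 for Snhg3, 0.21 for Snhg8 and 0.45 for Snhg12. With miR-7a they were 0.68 for Neat1, 0.27 for Gas5, 0.42 for Snhg3, 0.68 for Snhg6 and 0.86 for Snhg12. With miR-29a they were -0.052 for Malat1, 0.046 for Snhg3 and 0.039 for Snhg8, and with miR-146a 0.011 for Gas5. For miR-7a under vehicle they were -0.26 for Malat1, -0.26 for Gas5, -0.17 for Snhg3 and -0.19 for Snhg12, and for miR-146a under vehicle 0.03 for Snhg6. The miR-7a interaction was 0.39 for Malat1 and 0.11 for Snhg6, and the miR-146a interaction -0.30 for Snhg6. The covariate left 14 of the 94 calls in the lists and 0 of the 8 among guest snoRNAs, which are themselves counted in the share.

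Without the 3 libraries, 0 long noncoding RNAs and 32 of all genes were called for LPS with miR-7a, and the values were 0.33 for Neat1, 0.004 for Gas5 and 0.46 for Snhg6, with Snhg12 at -0.21 (adjusted p = 0.91). For miR-7a under vehicle they were -0.52 for Malat1, -0.46 for Gas5, -1.15 for Snhg3 and -0.76 for Snhg12. The miR-7a interaction was 0.63 for Malat1, 0.015 for Gas5, 0.20 for Snhg3, 0.20 for Snhg6 and 0.36 for Snhg12.

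The replicate block gave 4, 2 and 4 called long noncoding RNAs for LPS with scramble, miR-7a and miR-29a, and under LPS 5 for miR-7a, 2 for miR-29a and 5 for miR-146a, and 3 and 1 for miR-7a and miR-29a under vehicle. It gave 28 guest calls and 270 list calls, and 67 to 4965 over all genes in these 8 comparisons (3 to 3161 without it). In the 3 comparisons whose numbers did not pair the libraries (2, 3 and 3 of 4 libraries correlated best with their own number), the block added Snhg12 for LPS with miR-7a (-2.39, adjusted p = 0.000927), Neat1 (-1.01), Snhg3 (2.04) and Snhg12 (1.29) for miR-7a under vehicle (adjusted p = 0.00553, 0.00379 and 0.0182), and Snhg8 for miR-146a under vehicle (-1.06, adjusted p = 0.0215). It changed no other call of these genes than those given here and beside the results.

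DESeq2 called 3 for LPS with scramble, 2 for LPS with miR-7a, 3 for miR-7a under LPS, 1 for miR-29a and 3 for miR-146a under vehicle and 1 for the miR-7a interaction (Snhg3, -3.51, adjusted p = 0.0125), with 20 guest calls and 161 list calls. edgeR called 2 for LPS with miR-7a and 14 guests. No filter on low counts gave 3 for LPS with miR-7a, 1 for LPS with miR-29a and 14 guests. A posterior minimum of 0.99 gave 2 for LPS with scramble (Snhg8, adjusted p = 0.0418). Uncertain values kept gave 1 for LPS with miR-29a, 0 for miR-7a under LPS and 1 for miR-146a under vehicle (Malat1). With 1 set of library sizes Snhg3 was not tested for LPS with scramble or miR-7a, which left 0 calls in each. Library totals without structural RNA genes left 0 guests called, since those genes were then not tested.

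Leaving out each library gave 0 to 2 calls for LPS with scramble, 0 to 2 with miR-7a, 1 to 2 with miR-29a, 0 to 1 for miR-7a under LPS, 0 to 2 for miR-7a under vehicle, 0 to 3 for miR-146a under vehicle, 0 to 1 for the miR-7a interaction and 0 to 0 elsewhere. The gains were Snhg8 for LPS with scramble without replicate 1 of VEH_scramble or 3 of LPS_scramble, Gas5 for LPS with miR-29a without replicate 2 of LPS_miR-29a (0.47, adjusted p = 0.0254), Snhg8 for miR-146a under vehicle without replicate 1 of VEH_scramble (adjusted p = 0.0285), and, without replicate 1 of VEH_miR-7a, the Snhg3 interaction (-3.94, adjusted p = 0.000629), Snhg12 for LPS with miR-7a (-2.93, adjusted p = 0.0003) and Snhg3 (3.00) and Snhg12 (1.96) for miR-7a under vehicle. With 4 libraries a group and totals down to 1222951 counts, a difference that was not called may be real and not detectable at this depth.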
